A study of Mus musculus with 62 samples.

Results

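The Egr, Nr4a and Ier immediate-early genes and the serum response factor gene Srf were followed across 31 long-RNA libraries of mouse hippocampus and of a hippocampal cell line. The 10 genes, chosen by name, were Egr1, Egr2, Egr3, Egr4, Nr4a1, Nr4a2, Nr4a3, Ier2, Ier3 and Srf, out of 53975 gene identifiers in the deposited tables, and each was found once. Immediate-early genes are transcribed within minutes of a growth factor, calcium or synaptic signal, without new protein synthesis, and their RNAs decay quickly. In hippocampal neurons they follow synaptic activity and are used as a readout of recently active cells. Srf binds CArG boxes in many of their promoters together with cofactors of the Elk and Mkl families, and CREB binds cAMP response elements there. The Egr genes encode zinc finger transcription factors, the Nr4a genes encode orphan nuclear receptors, and Ier2 and Ier3 encode short-lived proteins of the early response to growth signals.

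Mice carried the APP NL-G-F knock-in allele, a humanised App gene with familial Alzheimer mutations expressed from its own locus (APP), or were C57BL/6J mice (WT). There were 2 WT mice and 3 APP mice at 3 months, and 3 of each genotype at 6 and at 12 months. Both hippocampi of a mouse were pooled into 1 sample. HT-22 cells, an immortalised mouse hippocampal line, were used at passage 4. An LNA oligonucleotide directed at Hsf1 (150 nM) or a scramble LNA (50 uM as labelled) was given over 24 h. Cells were then exposed to amyloid beta 1-42 (Aβ42) or the reverse peptide, each at 30 uM in DMSO. The scramble LNA was combined with each peptide in 4 libraries and the anti-Hsf1 LNA with each peptide in 3, all called biological replicates in the design text of the series. No untreated cells were among these libraries, and the 2 LNAs were labelled with different concentrations, so LNA sequence and amount cannot be told apart.

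Depth was known only as a relative measure, the ratio of coverage to FPKM, with a range of 1.42 to 3.04 over mouse libraries and 0.724 to 2.60 over HT-22 libraries. Levels are given as scaled TPM, that is TPM, an abundance per transcript length, divided by a median-of-ratios factor for each library. Xist was at 70.6 to 137 scaled TPM in all APP mice and the WT mice of 3 months, and the Y-linked gene Ddx3y at 18.8 to 28.2 in all 6 WT mice of 6 and 12 months. Sex therefore cannot be told apart from genotype at 6 and 12 months, or from age in WT mice between 3 months and later. In HT-22 cells the neuronal genes Rbfox3, Snap25, Syt1 and Gad1 and the hippocampal genes Prox1 and Neurod6 were listed at 0 in all 14 libraries. So were the hippocampal genes Dsp and C1ql2. Other hippocampal genes of the same list were detected, Zbtb20 at 15.1 to 55.1, Wfs1 at 9.97 to 13.8 and Bok at 5.79 to 19.8 scaled TPM. The neuronal gene Tubb3 was at 1.39 to 6.88, and Camk2a, Slc17a7 and Map2 were at most at 1.02. Hsf1, the target of the LNA, was at 53.8 ± 7.89 (SD, n = 4) with scramble and 48.2 ± 4.81 (n = 3) with anti-Hsf1 LNA after reverse peptide, and at 61.6 ± 9.31 (n = 4) and 47.2 ± 4.07 (n = 3) after Aβ42. Hsf1 values of scramble and anti-Hsf1 libraries overlapped with either peptide.

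Egr2 lies on chromosome 10 (67535475 to 67542188, plus strand), Egr3 on chromosome 14 (70077203 to 70082614, plus) and Egr4 on chromosome 6 (85511121 to 85513589, minus), in GRCm38 coordinates of the deposited tables. Nr4a1 lies on chromosome 15 (101254269 to 101274795, plus), Nr4a2 on chromosome 2 (57106830 to 57124003, minus) and Nr4a3 on chromosome 4 (48045153 to 48086447, plus). Ier2 lies on chromosome 8 (84661331 to 84662852, minus), Ier3 on chromosome 17 (35821684 to 35822923, plus) and Srf on chromosome 17 (46548329 to 46556175, minus). Srf is overlapped by Gm26904 and Mir6976, and since the counting is not stated to use strand, reads shared with them cannot be told apart.

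Promoter sequence from RefSeq (GRCm38.p6) was found for 7 of the 10 genes, in 11 windows, and not for Egr1, Egr3 and Ier2. Bases upstream of the transcription start are printed for 4 of them, 5′ to 3′ on the strand of the gene, because these genes were high in the same HT-22 libraries, described next, while the sequences differ in whether they hold a CArG box. Capitals mark the CArG box in Egr2 (chr10:67537619-67537868, plus strand) and Srf (chr17:46556176-46556412, minus strand), and the cAMP response element core TGACG or its reverse complement CGTCA in Nr4a1 (chr15:101266596-101266845, plus strand) and Nr4a2 (chr2:57124004-57124253, minus strand).
Egr2: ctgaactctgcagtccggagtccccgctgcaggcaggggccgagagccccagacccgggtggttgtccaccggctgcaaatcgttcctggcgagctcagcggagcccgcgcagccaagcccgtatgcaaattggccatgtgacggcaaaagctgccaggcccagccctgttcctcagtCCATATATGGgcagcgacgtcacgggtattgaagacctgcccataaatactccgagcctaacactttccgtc
Srf: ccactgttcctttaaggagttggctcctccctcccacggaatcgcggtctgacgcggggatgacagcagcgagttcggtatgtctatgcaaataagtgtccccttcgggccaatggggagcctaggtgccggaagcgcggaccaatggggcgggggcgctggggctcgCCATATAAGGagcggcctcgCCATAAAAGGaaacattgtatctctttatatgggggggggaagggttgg
Nr4a1: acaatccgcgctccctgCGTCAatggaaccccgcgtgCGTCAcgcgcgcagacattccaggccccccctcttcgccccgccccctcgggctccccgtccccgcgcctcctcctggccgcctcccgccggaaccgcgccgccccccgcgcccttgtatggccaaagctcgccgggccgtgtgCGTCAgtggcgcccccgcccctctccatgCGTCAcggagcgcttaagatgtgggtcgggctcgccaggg
Nr4a2: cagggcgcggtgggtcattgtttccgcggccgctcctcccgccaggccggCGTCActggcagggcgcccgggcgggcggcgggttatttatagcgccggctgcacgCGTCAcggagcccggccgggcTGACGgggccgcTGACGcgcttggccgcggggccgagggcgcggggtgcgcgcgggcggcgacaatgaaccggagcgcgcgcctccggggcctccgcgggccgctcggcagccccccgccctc
The Egr2 window held 1 CArG box, beginning 72 bases before the start, and the Srf window held 2, beginning 82 and 62 bases before it. Both also held TGACG cores, left in lower case here, 2 in Egr2 (at -111 and, on the other strand, -55 from the start) and 1 in Srf (at -201). The printed Srf bases end at 46556176, short of the start at 46556162, and the Srf positions count the bases between, which are not printed. The Nr4a1 and Nr4a2 windows each held 4 TGACG cores, counting both strands, and no CArG box. A window with TGACG was found in 6 of the 7 genes, all but Ier3, and a window with a CArG box in 2, Egr2 and Srf. Egr2 had more than 1 window, and its window chr10:67535249-67535498 held neither. Counts of genes are therefore not directly comparable with shares of windows. Of 32851 RefSeq promoter windows of 300 bases, 1.63% held a CArG box and 20.8% held TGACG, each searched on both strands. The full cAMP response element was held by 1.79% of them and by no window of these genes. The windows behind these shares run from 250 bases before the start to 50 after it. The bases printed above, and the matches placed in them, lie upstream of the start only. A match is a stretch of letters in the sequence, and binding was not measured.

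In HT-22 cells 9 of the 10 genes were detected, and all 9 were highest in the same 3 libraries: replicates 3 and 4 of Aβ42 with scramble LNA and replicate 4 of reverse peptide with scramble LNA. These libraries stand apart from the others, including replicates of their own groups, so each HT-22 comparison is given with and without them. They were taken as the 3 libraries with the highest Egr1, so Egr1 had to be among the 9. Egr4 was listed at 0 in all 14 libraries. Egr3 and Nr4a3 passed the filter on low values, a mean of at least 1 scaled TPM, only through these 3 libraries, since their means over the other 11 were 0.83 and 0.24. A pair of genes that pass in this way had to be high there, and the other 7 members pass without these libraries.

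Among the Egr genes, Egr1 was at 31.8, 38.8, 25.8 and 323 scaled TPM in replicates 1 to 4 of reverse peptide with scramble, and at 24.3, 24.8, 217 and 239 in replicates 1 to 4 of Aβ42 with scramble. With anti-Hsf1 LNA it was at 39.2, 41.9 and 38.2 after reverse peptide and at 30.7, 32.7 and 28.2 after Aβ42. Thus 3 scramble libraries exceeded 200 while the other 11 libraries lay between 24.3 and 41.9. Egr3 was at 112 in reverse scramble replicate 4 and at 49.5 and 61.5 in Aβ42 scramble replicates 3 and 4, against 0.337 to 1.61 in the other 11 libraries. Egr2 was at 48.0, 11.7 and 41.2 in the same order, against 1.13 to 2.25. Egr2 was the gene on which the 3 libraries differed most among themselves, with Aβ42 replicate 3 well below the other pair.

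Nr4a1, which encodes the nuclear receptor Nur77, was at 2.75, 1.95, 2.84 and 209 scaled TPM in replicates 1 to 4 of reverse peptide with scramble and at 0.958, 1.65, 205 and 224 in those of Aβ42 with scramble. With anti-Hsf1 LNA it was at 6.98, 4.42 and 4.06 after reverse peptide and at 1.62, 1.92 and 3.37 after Aβ42. The 3 libraries lay close together on this gene, and no other library exceeded 6.98. Nr4a2 (Nurr1) was at 15.8 in reverse scramble replicate 4 and at 9.74 and 13.2 in Aβ42 scramble replicates 3 and 4, against 2.41 to 7.00 elsewhere, the narrowest separation of the 9 genes. Nr4a3 was at 4.35, 5.08 and 2.91 in that order, against 0.0849 to 0.425.

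Ier2 was at 180 scaled TPM in reverse scramble replicate 4 and at 156 and 160 in Aβ42 scramble replicates 3 and 4, against 16.8 to 33.9 in the other 11 libraries. Ier3, which encodes an apoptosis regulator induced by growth factors, was at 320, 240 and 262 in the same order, against 21.4 to 38.0. Srf itself was at 117, 142 and 133, against 24.7 to 39.0. The order among the 3 libraries differed between genes: reverse scramble replicate 4 was highest for Egr1, Egr2, Egr3, Nr4a2, Ier2 and Ier3, and an Aβ42 library was highest for Nr4a1, Nr4a3 and Srf.

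**Figure D1:**
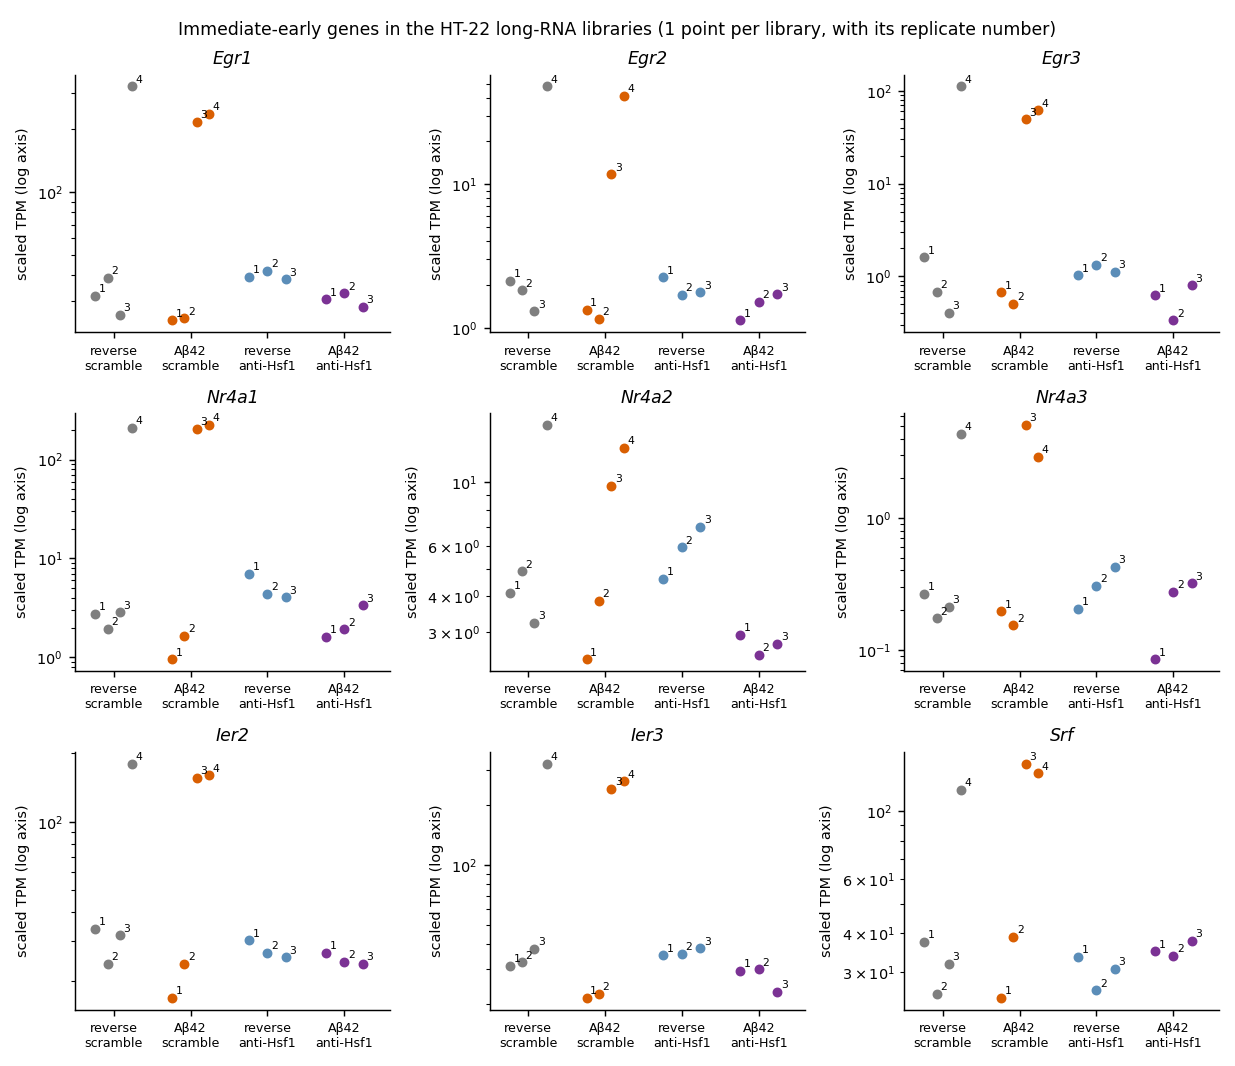
Scaled TPM (log axis) of 9 genes in the 14 HT-22 long-RNA libraries, 1 point per library with its replicate number, by peptide and LNA. Reverse scramble replicate 4 and Aβ42 scramble replicates 3 and 4 lie above all other points in each panel, with Egr1 at 217 to 323 in these and 24.3 to 41.9 in the other 11.

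The 3 libraries were also the highest for 2669 of all 17224 genes tested (15.5%), so the pattern was not restricted to immediate-early genes. Among the 17045 genes that pass the filter over the other 11 libraries alone, a choice made after seeing the data, the share was 15.3%. These 3 held the highest relative depth (2.60, for reverse scramble replicate 4), the second (1.64) and the fourth (1.20), where the other 11 ran from 0.724 to 1.21. They also had the 3 largest shares of TPM in protein-coding genes, 55.7% to 61.8%, against 30.1% to 54.3%. Summed markers of some other cell types were high in them too, at 53.5 to 55.2 scaled TPM against 6.94 to 13.96 for microglia (4 markers), 102 to 112 against 39.6 to 61.4 for choroid plexus and 6.29 to 7.60 against 1.50 to 3.63 for neurons. The hippocampal neuron sum went the other way, at 48.8 to 59.4 against 57.0 to 81.6, with overlap. Oligodendrocyte (2.86 to 3.44) and endothelial (31.9 to 32.4) sums lay inside the range of the other 11. The defining markers P2ry12 of microglia and Ttr of choroid plexus were listed at 0 in all 14 libraries, as were the neuronal genes Rbfox3, Snap25, Syt1 and Gad1. The microglial, choroid plexus and neuronal sums in these libraries were mostly Tmem119, Aqp1 and Tubb3. The part of depth, RNA composition and these markers in the members' levels was not tested.

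Among related genes, all 3 libraries were highest for 6 of 7 AP-1 genes, which encode the Fos and Jun partners of the early response, and Jund was the exception. They were highest for 8 of 8 tested MAP kinase feedback genes, for 13 of 14 activity-regulated genes (all but Klf6), for both other Ier genes tested, Ier5 and Ier5l, and for 11 of 12 Srf cytoskeletal targets (all but Tagln). Npas4 and Tagln passed the filter only through these libraries, and without them in the lists the counts were 12 of 13 activity-regulated genes and 11 of 11 cytoskeletal targets. The count was 1 of 5 for Srf cofactors (Elk4), 1 of 8 for CREB factors and coactivators (Atf1) and 1 of 4 for partners of Egr and Nr4a proteins (Nab2, an Egr corepressor). Among 10 tested heat shock genes the count was 5. These counts stand beside 15.5% for all genes. The members and lists were chosen with earlier results of these data known, so these counts, and those in mice below, are a description. The differences between lists were not tested.

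A few related genes are given as examples, chosen after their values were seen. Dusp5, a nuclear phosphatase of the MAP kinase ERK, was at 121, 135 and 145 scaled TPM in the 3 libraries and at 1.79 to 4.11 in the other 11. Junb, an AP-1 subunit, was at 228 to 275 against 14.7 to 25.0, and Ctgf, a secreted matrix protein, at 735 to 819 against 20.9 to 38.0. Npas4, a neuronal activity-dependent transcription factor, was at 4.22 to 6.18 in the 3 libraries and at most at 0.265 elsewhere. The Srf cofactors Elk1 and Mkl2 went the other way, with Elk1 at 18.5 to 19.5 in the 3 libraries and 24.9 to 30.7 in the other 11, and Mkl2 at 13.0 to 15.0 against 15.3 to 22.4. The heat shock gene Hspa1b was at 12.1 to 23.1 against 21.7 to 32.7, with overlap.

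**Figure D2:**
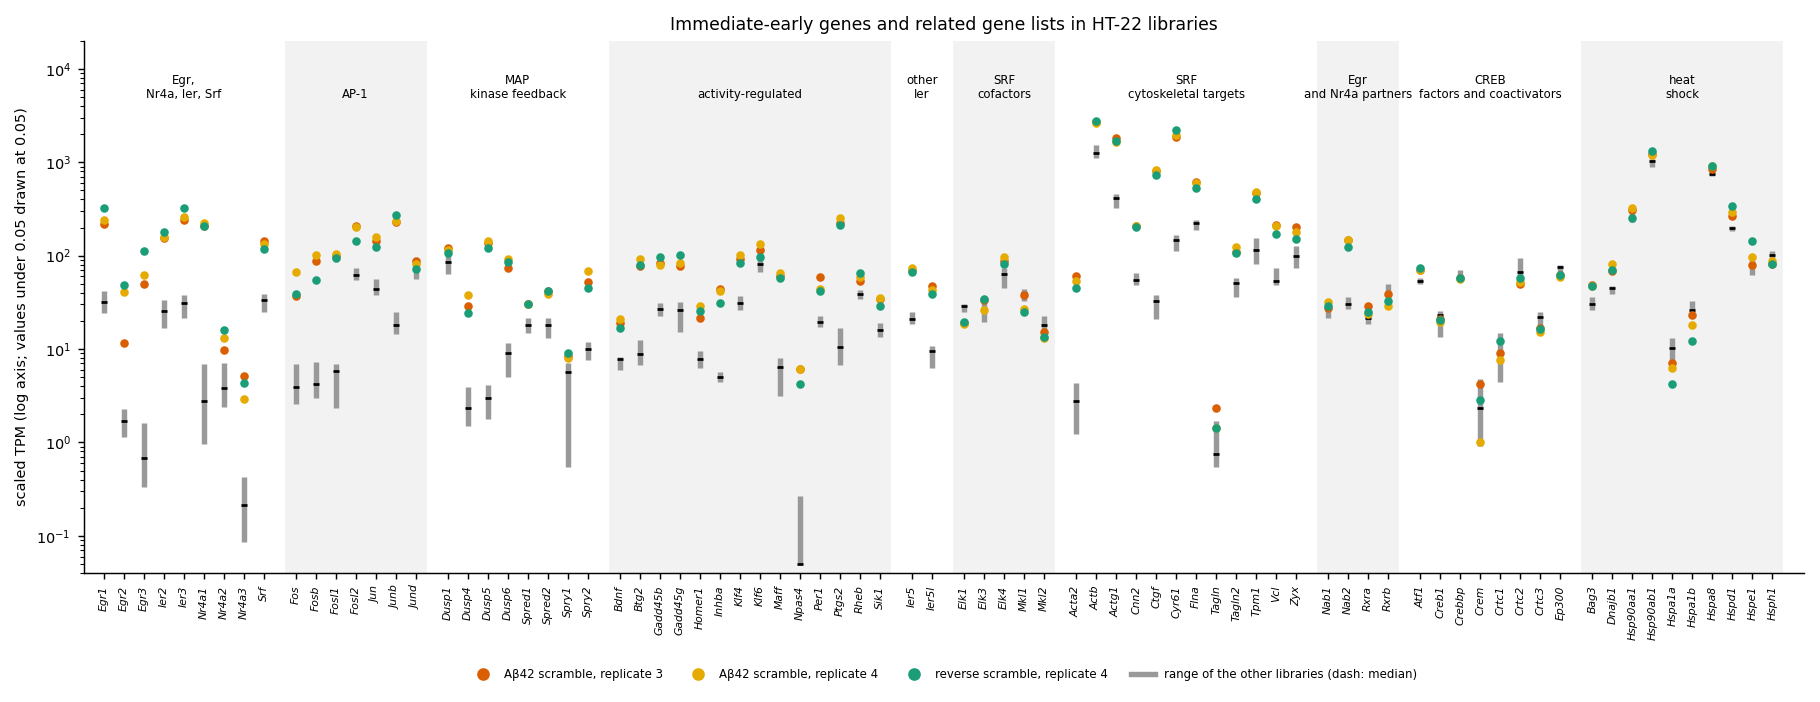
Scaled TPM (log axis) of the detected Egr, Nr4a, Ier and Srf genes and of related gene lists in HT-22 cells. Coloured points are the 3 named libraries, the grey bar spans the other 11 and the dash is their median. The coloured points lie above the bar for all 9 genes of the first block and for 6 of 7 AP-1 genes, and inside or below it for most CREB factors and Srf cofactors.

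No member passed the test between HT-22 conditions. In the comparison of Aβ42 with reverse peptide under scramble LNA, limma called 0 of 9 members and 0% of all genes at an adjusted p of 0.05, and 0 members had an unadjusted p below 0.05. All 9 fitted log2 changes of scaled TPM + 1 were above 0, with a median of 0.40 against 0.00 for all genes. The largest were Nr4a1 at 1.19 (SE 1.63, limma adjusted p = 0.954) and Egr3 at 0.88 (SE 1.43, adjusted p = 0.960). Without the 3 libraries all 9 changes were below 0, from -0.61 (Nr4a1, limma adjusted p = 0.691) to -0.01 (Srf), with Egr3 at -0.21 (adjusted p = 0.917). In that fit 0 members and 0.00581% of all genes were called, and 3 members had an unadjusted p below 0.05, as did 7.4% of all genes. The sign of the peptide difference under scramble LNA therefore rested on these 3 libraries, without which 2 Aβ42 and 3 reverse peptide libraries remain. With all libraries the 2 groups overlapped for every member, where 0.935% of all genes were higher and 1.42% lower without overlap.

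Under anti-Hsf1 LNA, where none of the 3 libraries enters the groups compared, 0 of 9 members and 0% of all genes were called by limma, and 0 members had an unadjusted p below 0.05. The changes from reverse peptide to Aβ42 were below 0 for 8 members and above 0 for Srf (0.24), with a median of -0.37. Nr4a2 was at 4.60, 5.94 and 7.00 scaled TPM after reverse peptide and at 2.94, 2.50 and 2.73 after Aβ42. The 2 groups did not overlap, with a change of -0.87 on the log2 scale (SE 0.54, limma adjusted p = 1). Nr4a1 did not overlap either, at -0.90 (SE 1.88, adjusted p = 1). Groups did not overlap, with Aβ42 lower, for 5 members (Egr1, Egr3, Nr4a1, Nr4a2 and Ier3), where 9.61% of all genes did so, and with Aβ42 higher for Srf, where 8.74% did. The share of TPM in protein-coding genes was 30.1% to 42.1% in these Aβ42 libraries and 48.7% to 52.1% in these reverse peptide libraries. The part of this difference was not tested. TPM as deposited gave a median of -0.52 over all genes and called 24.5% of them, with 0 members called. The spread in the main fit, on scaled TPM, is shared by all 14 libraries. Without the 3 libraries the SE of Nr4a2 was 0.21 and that of Nr4a1 0.27 at the same changes, 4 members had an unadjusted p below 0.05, as did 9.21% of all genes, and 0 were called (limma adjusted p = 0.379 for Nr4a2 and 0.414 for Nr4a1), with 0.0232% of all genes called.

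For anti-Hsf1 against scramble LNA after reverse peptide, limma called 0 of 9 members and 0% of all genes, and 0 members had an unadjusted p below 0.05. All 9 changes were below 0, with a median of -0.69, and the largest changes were Egr3 at -1.25 (SE 1.54, limma adjusted p = 0.959) and Egr2 at -0.96 (SE 1.08, adjusted p = 0.959). Without the 3 libraries, and equally without reverse scramble replicate 4 alone, Egr3 was at 0.24 and Egr2 at 0.083. The groups overlapped for every member, where 3.15% of all genes were higher and 2.82% lower without overlap. With these 3 left out 7 members were above 0, 0 members and 0% of all genes were called, and 2 members had an unadjusted p below 0.05, as did 4.92% of all genes.

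After Aβ42 all 9 fitted changes from scramble to anti-Hsf1 LNA were below 0, at a median log2 change of -1.28 against 0.00 for all genes. Limma called 0 of 9 members, none of them with an unadjusted p below 0.05, where 0.0232% of all genes were called. Nr4a1 was at -2.78 (SE 1.76, limma adjusted p = 0.581) and Egr3 at -2.58 (SE 1.54, adjusted p = 0.574). The groups overlapped for every member, where 4.38% of all genes were higher and 4.16% lower without overlap. Within the Aβ42 scramble group, replicates 1 and 2 lay within or below the range of the anti-Hsf1 libraries for Egr1, Egr2 and Nr4a1, and replicates 3 and 4 far above. With these 3 left out the changes ran from -0.13 to 0.50, Nr4a1 was at 0.50 (adjusted p = 0.731) and Egr3 at -0.01 (adjusted p = 0.997), and 0 members were called, with 1 below an unadjusted p of 0.05 (7.66% of all genes) and 0.0232% of all genes called. The count of calls depended on how libraries were weighted: with limma array weights 9 members and 10.7% of all genes were called, the members all lower, with Nr4a1 at -4.75 (adjusted p = 0.0329), and on TPM as deposited, which shifts the median of all genes to -0.62 and calls 50.8% of them, 2 were (Nr4a2 and Srf).

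The interaction of peptide and LNA was below 0 for all 9 members, with a median of -0.73, and limma called 0 of them and 0% of all genes, with 0 members at an unadjusted p below 0.05. Beside these counts of 0 members, the share of all genes at an unadjusted p below 0.05 with all 14 libraries was 5.03% (peptide under scramble), 4.59% (peptide under anti-Hsf1), 3.61% (LNA after reverse peptide), 9.02% (LNA after Aβ42) and 5.18% (interaction). Nr4a1 was at -2.09 (SE 2.49, limma adjusted p = 1) and Egr3 at -1.33 (SE 2.18, adjusted p = 1). When they were left out 5 members were below 0 and 4 above, Nr4a1 was at -0.29 (adjusted p = 0.893) and Egr3 at -0.25 (adjusted p = 0.916), and 0 were called, against 0.0232% of all genes. For anti-Hsf1 against scramble LNA after Aβ42, the related lists had medians of -1.34 (7 AP-1 genes), -0.86 (8 MAP kinase feedback genes), -0.84 (12 Srf cytoskeletal targets), -0.73 (14 activity-regulated genes), 0.06 (5 Srf cofactors), 0.06 (8 CREB factors and coactivators) and -0.04 (10 heat shock genes). With the 3 libraries left out these medians were 0.21, 0.18, 0.12, 0.04, -0.05, -0.09 and 0.09 in the same order, so those of the first 4 lists changed sign, and no list gene was called in any of the 5 contrasts. Across the 5 contrasts no AP-1, activity-regulated, MAP kinase feedback, Srf, CREB, Egr and Nr4a partner, other Ier or heat shock gene was called by limma, and with all 14 libraries at most 1 gene of a list had an unadjusted p below 0.05 in any of them. With the 3 left out the most was 5, of 12 Srf cytoskeletal targets in the peptide comparison under scramble LNA.

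**Figure D3:**
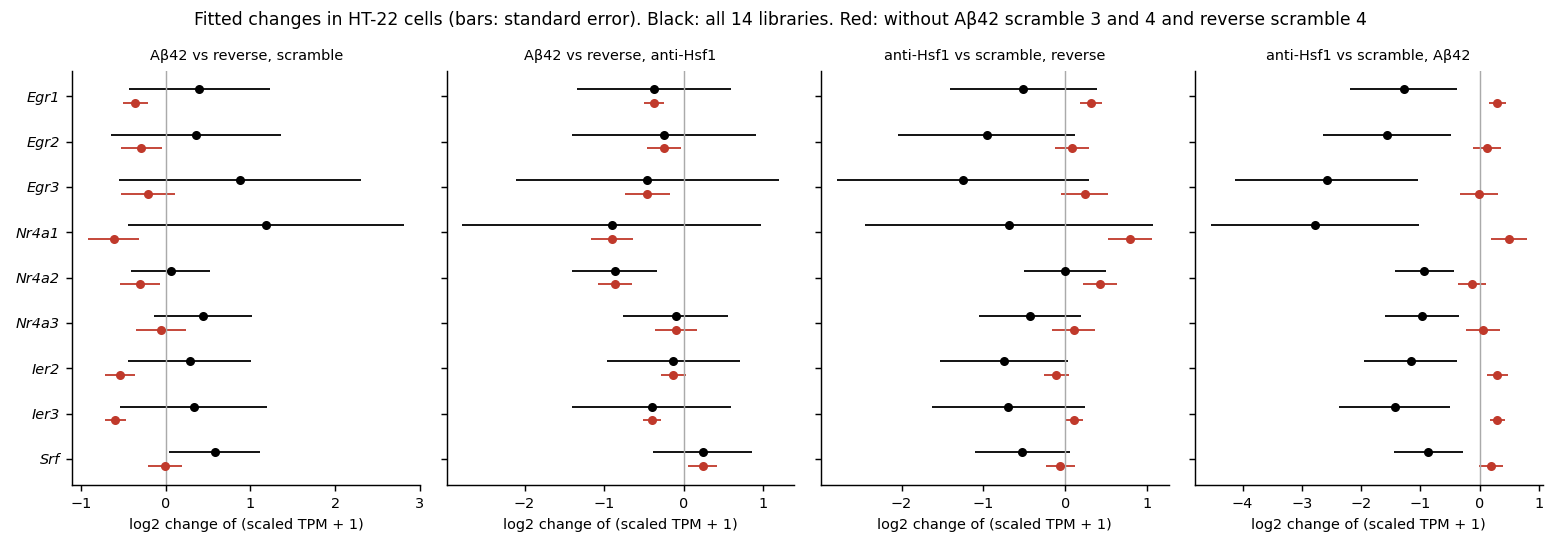
Fitted log2 changes of scaled TPM + 1 with standard errors for 9 genes in the 4 HT-22 comparisons, from all 14 libraries (black) and without Aβ42 scramble replicates 3 and 4 and reverse scramble replicate 4 (red). Leaving these libraries out moved Nr4a1 from 1.19 to -0.61 in the peptide comparison under scramble LNA and from -2.78 to 0.50 in the LNA comparison after Aβ42.

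Outside the 10 members, which were left out of the ranking, the genes with the pattern most like Egr1 over the 14 HT-22 libraries were Tiparp, Hmox1, Eif1a, Pvr and F2r (Pearson r of log2 values 0.99 for each), out of 11536 genes ranked. Among the 5 most like Nr4a1 were Dusp4, Plk2, Ctgf and Fosl1, with r of 0.99 for each. These correlations describe libraries of which 3 stand apart and that differ in depth. Over the other 11 libraries r was 0.70 to 0.87 for the Egr1 set and 0.75 to 0.93 for these 4 genes. Among members over those 11, Nr4a2 (r = 0.74), Ier3 (0.70) and Egr2 (0.67) were the most like Egr1, and Srf was at -0.31.

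In mouse hippocampus all 10 genes were detected, and 6 of them were highest in the same 2 APP mice of 3 months. Egr1 was at 21.1, 80.3 and 92.5 scaled TPM in APP mice 1 to 3 of 3 months, and at 30.6 and 47.7 in WT mice of that age. At 6 months it was at 22.3, 25.6 and 32.1 in APP and 22.8, 17.2 and 31.1 in WT mice, and at 12 months at 18.3, 22.4 and 15.8 in APP and 28.2, 20.9 and 33.6 in WT mice. APP mice 2 and 3 of 3 months were thus above every other mouse, while APP mouse 1 was among the low values. Group means of Egr1 ran from 64.6 ± 38.2 (SD, n = 3) in APP mice of 3 months through 39.1 ± 12.1 (n = 2) in WT mice of 3 months to 18.9 ± 3.33 (n = 3) in APP mice of 12 months, and each group overlapped its neighbour in this order.

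Egr2 was at 3.09, 6.33 and 7.35 scaled TPM in APP mice of 3 months, at 0.950, 1.50 and 1.10 at 6 months and at 1.36, 1.41 and 1.57 at 12 months. WT mice were at 1.38 and 1.80 at 3 months, 1.03, 1.07 and 3.64 at 6 months and 1.09, 0.314 and 1.08 at 12 months. APP mice of 3 months were above all other mice except WT mouse 3 of 6 months. Egr4 followed Egr1, with 6.74, 22.6 and 20.5 in APP mice of 3 months, 11.0 and 15.8 in WT mice of 3 months and 6.03 to 11.1 in the 12 older mice. Egr3 did not: it was highest in WT mice of 3 months (28.2 and 32.0) and at 10.4, 23.9 and 12.9 in APP mice of that age, with group means of 18.4 to 24.8 later.

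Nr4a1 was at 18.7, 55.0 and 51.1 scaled TPM in APP mice and at 24.3 and 31.3 in WT mice of 3 months, and at 12.6 to 34.2 in the older mice. Nr4a2 had the opposite genotype order, with 4.33, 19.6 and 19.8 in APP and 30.9 and 44.5 in WT mice of 3 months. Nr4a3 was at 7.87, 20.1 and 25.3 in APP and 21.8 and 28.4 in WT mice. APP mouse 1 of 3 months thus had the lowest Nr4a2 and Nr4a3 of all 17 mice, and mice 2 and 3 the highest Nr4a1.

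Ier2 and Ier3 were low in hippocampus, at 1.32 to 4.86 and 0.864 to 3.94 scaled TPM, and both were highest in APP mice 2 and 3 of 3 months. Srf had group means from 16.1 ± 3.76 (SD, n = 3) in WT mice of 6 months to 26.1 ± 3.78 (n = 2) in WT mice of 3 months, and was at 13.3, 21.5 and 21.1 in APP mice of 3 months. APP mice 2 and 3 of 3 months were taken as the 2 mice with the highest Egr1, so Egr1 had to count among the members here. These mice were the top pair of 17 for 6 of the 10 members, namely Egr1, Egr2, Egr4, Nr4a1, Ier2 and Ier3, and for 2.14% of all genes tested. They were also the top pair for 3 of 7 AP-1 genes (Fos, Fosb and Junb), 6 of 15 activity-regulated genes (Arc, Homer1, Inhba, Gadd45b, Sik1 and Per1), both other Ier genes, 2 of 9 MAP kinase feedback genes, 1 of 8 CREB factors and coactivators, 1 of 5 Egr and Nr4a partners (Nab2) and 1 of 11 heat shock genes. None of 5 Srf cofactors and none of 13 Srf cytoskeletal targets showed this.

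**Figure D4:**
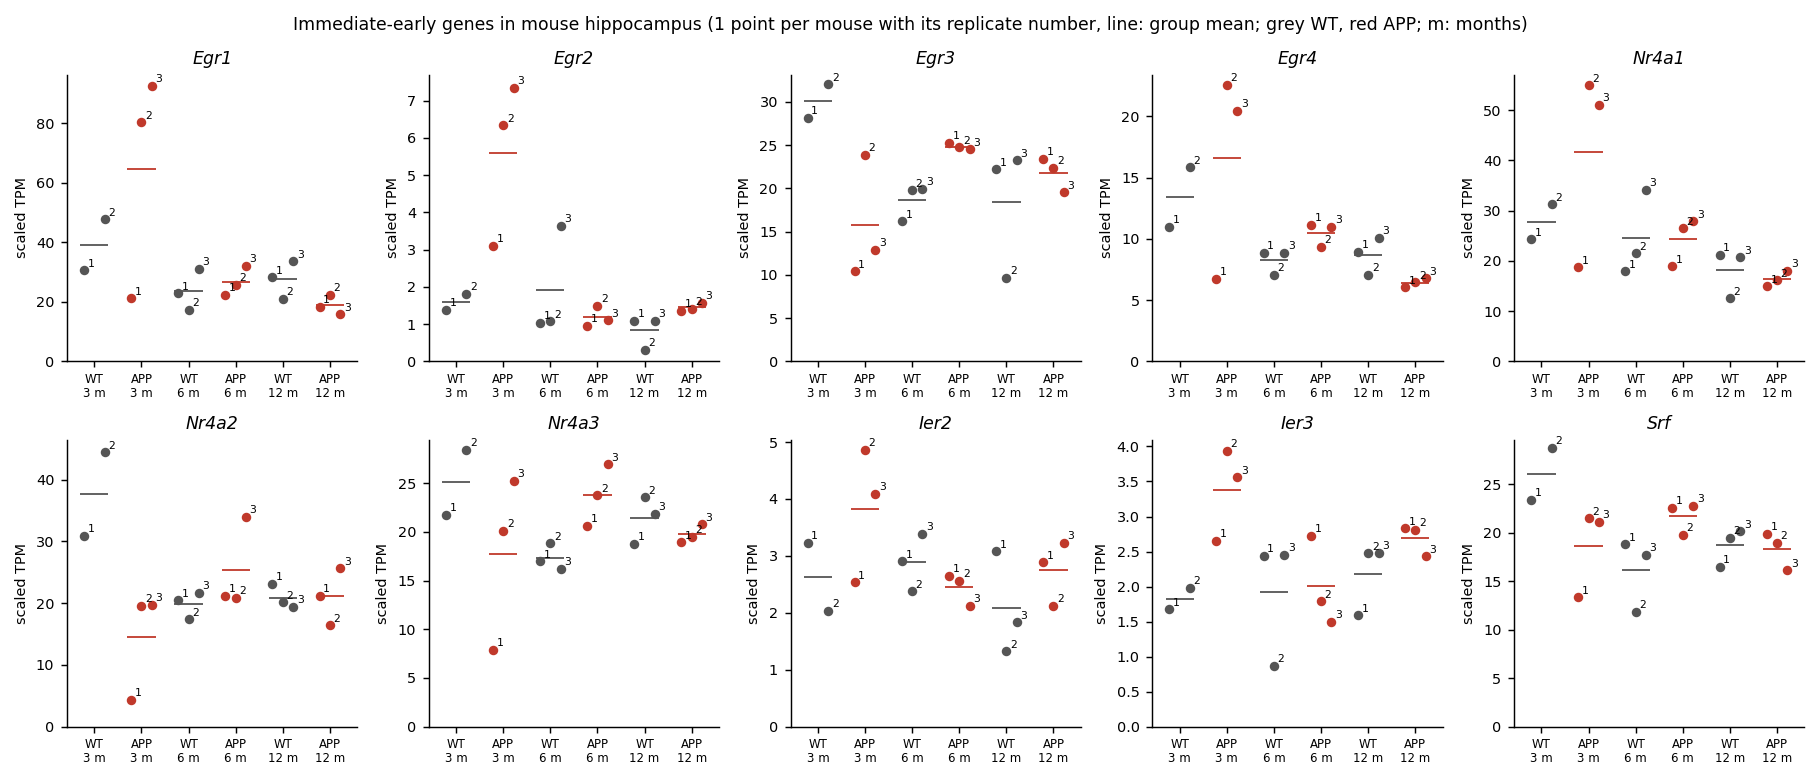
Scaled TPM of the 10 genes in 17 mouse hippocampus libraries, 1 point per mouse with its replicate number and a line at the group mean (grey WT, red APP, ages in months). APP mice 2 and 3 of 3 months are the highest for Egr1, Egr2, Egr4, Nr4a1, Ier2 and Ier3, and APP mouse 1 of 3 months is the lowest for Nr4a2 and Nr4a3.

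Markers of neighbouring regions were high in APP mice of 3 months, cortical genes in mice 2 and 3, and thalamic and striatal genes in mice 1 and 2. The summed level of 4 cortical genes (Rorb, Cux2, Tbr1 and Lamp5) was 115 and 108 scaled TPM in APP mice 2 and 3 of 3 months, 46.0 in APP mouse 1 and 42.9 to 77.6 in all other mice. Summed thalamic genes were at 431 in APP mouse 1, 153 in mouse 2 and 50.9 in mouse 3 of 3 months, and summed striatal genes at 261, 90.2 and 65.6. In the other mice the thalamic sum was at most 117 and the striatal sum at most 71.8. Summed hippocampal neuron genes were at 128, 169 and 209 in APP mice of 3 months and at 218 to 308 in all other mice, and oligodendrocyte genes at 1487 to 2447 against 749 to 1431. Fewer cells of a type and less RNA per cell cannot be told apart in these bulk samples. The part of these markers in the 3-month results was not tested.

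**Figure D5:**
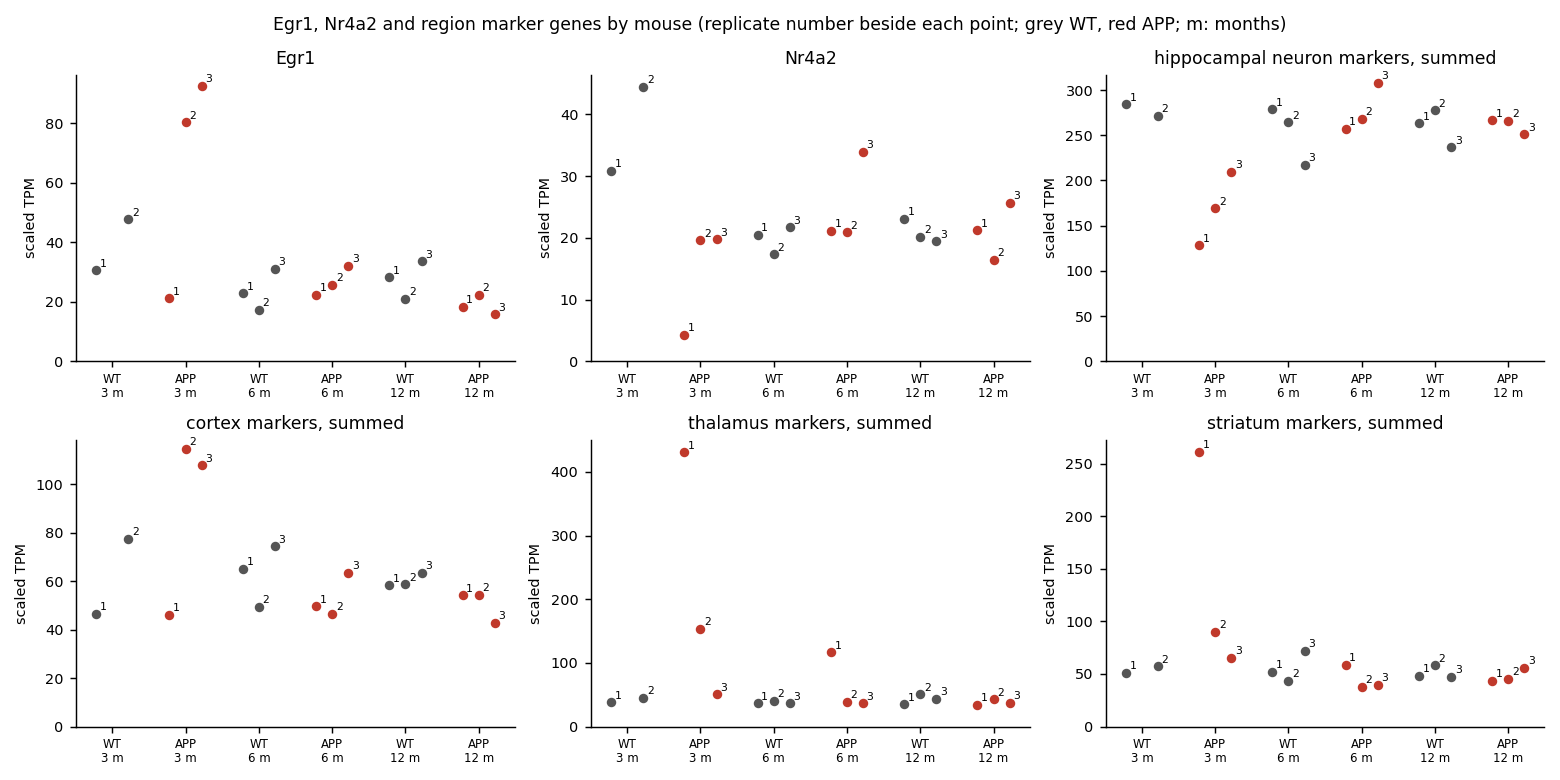
Scaled TPM of Egr1, Nr4a2 and summed region markers in the 17 mice, with replicate numbers (grey WT, red APP). The 2 APP mice with the highest Egr1 (80.3 and 92.5) also have the highest cortex sums (115 and 108), and the APP mouse with the lowest Nr4a2 (4.33) has the highest thalamus (431) and striatum (261) sums.

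Between genotypes no member was called at any age. At 3 months limma called 0 of 10 members and 0.304% of all genes, and 5 members had an unadjusted p below 0.05, as did 13.4% of all genes. Nr4a2 was lower in APP mice at -1.53 on the log2 scale (SE 0.43, limma adjusted p = 0.141), and Egr2 higher at 1.29 (SE 0.36, adjusted p = 0.133). The 2 groups did not overlap for 5 members, with Egr2 and Ier3 higher in APP mice (13.8% of all genes) and Egr3, Nr4a2 and Srf lower (13.4%). Without APP mouse 3, Nr4a2 was called, at -1.86 (adjusted p = 0.0454), in a fit that called 2.16% of all genes. At 6 months 0 of 10 members were called, where 1.71% of all genes were, and 1 member, Srf, had an unadjusted p below 0.05, as did 17% of all genes. Srf was at 0.43 (SE 0.18, limma adjusted p = 0.247) and Nr4a3 at 0.43 (SE 0.28, adjusted p = 0.470). All APP mice were above all WT mice for Egr3, Egr4, Nr4a3 and Srf, as for 11.1% of all genes. The share of TPM in protein-coding genes was 36.2% to 51.0% in APP and 26.6% to 28.5% in WT mice of 6 months. The part of this difference was not tested. On TPM as deposited, where the median of all genes was 0.60 higher in APP mice and 58% of genes were called, these 4 members were called higher. Of the related lists, only Spry4, a MAP kinase feedback gene, was called at 6 months (0.60, SE 0.13, limma adjusted p = 0.0342). At 12 months 0 members were called, 0 had an unadjusted p below 0.05 (7.03% of all genes did), and 0.433% of all genes were called. The groups did not overlap for Egr2, higher in APP mice (8.62% of all genes), and Egr4, lower (6.99%). The largest changes were Egr1 at -0.51 (limma adjusted p = 0.922) and Egr2 at 0.45 (adjusted p = 0.889).

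With age in APP mice, Egr2 fell. Limma called it lower at 6 than at 3 months, at -1.54 on the log2 scale (SE 0.32, limma adjusted p = 0.0252), and lower at 12 than at 3 months, at -1.37 (SE 0.32, adjusted p = 0.0304). It was the only member called of 10 in each comparison, where 2.38% and 3.27% of all genes were called, 1.1% and 1.37% lower. In the same order, 5 and 4 members had an unadjusted p below 0.05, as did 18.6% and 16.5% of all genes. At 6 months the groups did not overlap for Egr2, lower, and for Egr3 and Nr4a2, higher (10.2% of all genes each way), and at 12 months for Egr2 and Nr4a1, lower (10.7%). Both comparisons share the APP mice of 3 months, whose region markers are given above. Without APP mouse 1 of 3 months, Egr1, Egr2 and Egr4 were called lower at 6 months and these and Nr4a1 at 12 months, with Egr1 at -1.67 (adjusted p = 0.0147) and -2.15 (adjusted p = 0.00188). These fits called 1.18% and 2.3% of all genes. Leaving out any other single mouse of the groups compared ended the call of Egr2, with adjusted p of 0.0523 to 0.0861 at 6 months and 0.0815 to 0.101 at 12 months. Egr3 and Nr4a2 had changes above 0 at 6 months (0.71 and 0.97, limma adjusted p = 0.191 and 0.194), so the members did not share 1 direction.

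Related genes were called beside Egr2 in APP mice, where 2.38% of all genes were called at 6 and 3.27% at 12 against 3 months. These calls rest on the same APP mice of 3 months, whose region markers are given above. At 6 against 3 months 1 of 7 AP-1 genes fell, Fos (-1.13, SE 0.24, limma adjusted p = 0.0272), and 1 rose, Jun (0.73, SE 0.14, adjusted p = 0.0171). Of 9 MAP kinase feedback genes Dusp1, a phosphatase, fell (-0.92, limma adjusted p = 0.0458), and of 8 CREB factors and coactivators Crtc3 (0.70) and Crtc1 (0.69) rose. The Srf cofactor Elk1 rose by 0.51, 1 of 5, and the heat shock gene Dnajb1 fell (-0.54), 1 of 11. At 12 against 3 months Fos (-1.59, limma adjusted p = 0.00314), Dusp1 (-1.03) and Dnajb1 (-0.72) were again lower and Jun (0.65) and Elk1 (0.50) higher. Of 15 activity-regulated genes 3 fell at 12 months: Nptx2 (-1.20), which encodes a pentraxin of excitatory synapses, the kinase gene Sik1 (-0.89) and the clock gene Per1 (-0.76), and 1 of 13 Srf cytoskeletal targets, Tagln2, rose (0.85). No partner of Egr or Nr4a proteins and neither other Ier gene was called.

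From 6 to 12 months in APP mice 0 of 10 members were called, 0 had an unadjusted p below 0.05 (11.4% of all genes did), and 0.54% of all genes were called by limma. The groups did not overlap, with 12 months lower, for Egr3, Egr4 and Nr4a1 (9.32% of all genes). In WT mice 0 members were called between 3 and 6 months (0.186% of all genes; 1 member, Srf, with an unadjusted p below 0.05, beside 14% of all genes), between 3 and 12 months (0.0619%; 2 members, Egr3 and Srf, beside 8.29%) and between 6 and 12 months (0%; 0 members, beside 6.84%). From 6 to 12 months the WT groups overlapped for all 10 members, where 6.05% of all genes were higher and 6.15% lower without overlap. WT changes from 3 months were below 0 for 8 of 10 members at 6 months, with a median of -0.56, and for 9 of 10 at 12 months, with a median of -0.51. The largest at each age was Nr4a2, at -0.87 (SE 0.43, limma adjusted p = 0.382) and -0.80 (SE 0.43, adjusted p = 0.652). All WT mice of 6 months lay below both WT mice of 3 months for 5 members (15.9% of all genes), and all of 12 months for 6 (13.7%). On TPM as deposited, which shifts the median of all genes to -0.48 and calls 34.2% of them, those 5 members were called lower at 6 months.

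The genotype difference was compared between ages, a contrast in which sex cannot be told apart either, since only WT mice differed in it between ages. From 3 to 6 months the interaction was called for 0 of 10 members and 1.62% of all genes, and 5 members had an unadjusted p below 0.05, as did 18.8% of all genes. Nr4a2 was at 1.84 (SE 0.58, limma adjusted p = 0.106) and Egr2 at -1.60 (SE 0.48, adjusted p = 0.0934). Jun (1.00), Mkl1 (1.11) and Crtc1 (1.02) were called from the related lists. On TPM as deposited, with a median of 0.74 and 44.5% of all genes called, Egr3, Nr4a2, Nr4a3 and Srf were called. From 3 to 12 months it was called for 0 members and 0.0732% of all genes, with 2 members, Egr3 and Nr4a2, at an unadjusted p below 0.05, as were 10.1% of all genes. Nr4a2 was at 1.53 (SE 0.58, limma adjusted p = 0.376) and Egr3 at 1.29 (SE 0.42, adjusted p = 0.287).

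Over the 17 mice the genes most like Egr1, members again left out of the ranking, were Camkk2, Pak7, Ngef, Mark1 and Pou3f2 (Pearson r 0.90 to 0.93), out of 10982 genes ranked, and those most like Nr4a1 were Arc, Junb, Dennd5b, Ctdp1 and Plcl2 (0.85 to 0.94). Without APP mice 2 and 3 of 3 months the ranges were 0.70 to 0.84 and 0.66 to 0.86. Among the members themselves, Egr4 (r = 0.94) and Nr4a1 (0.89) were most like Egr1, and Egr3 least (0.11). Over the 15 other mice Egr4 was at 0.85, Nr4a1 at 0.70 and Egr3 at 0.50. The least alike there were Ier2 (-0.16), Ier3 (-0.12) and Egr2 (0.19), so the low place of Egr3 rested on the 2 mice left out. The mice share groups of 1 genotype and age, and these values are a description.

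HT-22 cells and hippocampus differed in which members they held, in TPM as deposited. Egr4 ran from 5.52 to 23.0 in mice and was listed at 0 in HT-22 cells, and Nr4a3 ran from 8.33 to 39.3 in mice and from 0.0542 to 6.11 in HT-22 cells. Ier2 and Ier3 were at 1.08 to 4.96 and 0.673 to 4.02 in mice and at 15.6 to 187 and 15.2 to 333 in HT-22 cells, without overlap. Egr1 ranges overlapped, at 13.4 to 89.5 in mice and 18.5 to 336 in HT-22 cells. These are separate kinds of sample, and the difference was not tested.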

How the data were processed

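Long-RNA libraries of 17 mice and 14 HT-22 cultures were used, and the 31 short-RNA libraries were not used here. The submitters' processing notes name FastQC, cutadapt 1.18, BWA 0.7.17, HISAT2 2.1.0, bedtools 2.26.0 and StringTie 1.3.4d, with builds mm10 and GRCm38, without saying which file each served. Per the labels' protocols, ribosomal RNA was removed and long RNA was fragmented. Per the file headers, the authors deposited TPM, FPKM and coverage per gene and library. TPM was summed per gene identifier. FPKM and the coverage signal, as deposited, gave relative depth only. Read counts were not used here, so no count model was run, and depth limits the precision of the low members by an unknown amount.

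TPM was divided by a median-of-ratios factor per library, from Python 3.11.15 (numpy 2.4.6, pandas 2.3.3), so changes are relative to the typical gene. Genes with a mean of at least 1 scaled TPM in a system entered a linear model in limma 3.58.1 under R 4.3.3, on log2(scaled TPM + 1), with trend and robust moderation, 6 mouse groups or 4 HT-22 groups in 1 fit, and Benjamini-Hochberg adjustment over all tested genes. This scale understates changes of low genes. A gene was called at an adjusted p below 0.05. The fit was tested on simulated data.

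The members and lists were chosen with earlier results of these data known. A change is printed for members called in a contrast, otherwise for the 2 largest, and for list genes called, up to 4 a list. Genes most alike are the 5 with the highest r among genes outside the members with a mean of at least 5. Of 53975 identifiers, 53769 are in GENCODE M21, 98.2% of them at the same coordinates. Alternatives were TPM as deposited, upper quartile scaling, a pseudocount of 0.1, a minimum mean of 5, no filter, the compared groups alone, array weights, a replicate block, each library left out and, chosen after seeing the data, the 3 HT-22 libraries left out, from the fits or from the filter. One cortical marker, 1 microglial marker and 1 gene among those most like Nr4a1 are not reported here, and the sums leave those markers out.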

Additional observations from a re-analysis of the deposited data

Results flagged for a closer look

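Within the 4 libraries of reverse peptide and scramble LNA, replicate 4 was separated from the other 3 by more than the 95% critical value of Dixon's test for 9 members. The values were 322.5 scaled TPM for Egr1, 48.0 for Egr2, 112 for Egr3, 209 for Nr4a1, 15.8 for Nr4a2, 4.35 for Nr4a3, 180 for Ier2, 320 for Ier3 and 117 for Srf. The test assumes normally distributed values and was run on scaled TPM, not on the log2 values of the fits. The count of 9 therefore holds for that scale only. Under that assumption chance flags about 1 in 20 groups, and the 9 genes share 1 library, so they are not 9 separate events. The library was already known to stand apart, so these flags are a description. The 4 libraries of Aβ42 and scramble LNA, of which 2 were high and 2 low, gave no such value.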

How the results depend on the processing

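Of 247 counts of called members under alternatives, 219 were within 1.5 times the main count. Most of these were a main count of 0 that stayed at 0. The main fit called a member only in APP mice at 6 and at 12 against 3 months. In both of those comparisons most alternatives changed the count by more than this. On TPM as deposited the counts were 4 (APP against WT at 6 months), 5 (WT, 6 against 3 months), 4 (genotype by age, 6 against 3 months) and 2 (anti-Hsf1 against scramble after Aβ42). With array weights 9 members were called in the last of these (10.7% of all genes) and 4 in APP mice at 12 against 3 months (4.07%). For APP mice at 6 against 3 months the count was 0 with a minimum mean of 5, which removes Egr2, with no filter and with the 2 groups alone. At 12 against 3 months it was 0 with these 3 and with a pseudocount of 0.1. With 1 library left out the counts ran from 0 to 1 (APP against WT at 3 months), 0 to 3 (APP, 6 against 3 months), 0 to 4 (APP, 12 against 3 months) and 0 to 1 (genotype by age, 6 against 3 months, where Egr3 was called without APP mouse 2 of 3 months, beside 2.99% of all genes).

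Of 488 values under alternatives, for the members called and the 2 with the largest change in each contrast, 8 changed sign, all in HT-22 cells. Other members also changed sign, in mice too, as Egr2 for APP against WT at 6 months (-0.31, and 0.083 on TPM as deposited). Without Aβ42 scramble replicate 4, Egr3 was at -0.030 for Aβ42 against reverse peptide under scramble (-0.030 to 2.37 over the 8 libraries left out in turn). Without the 3 libraries that stand apart, Nr4a1 was at -0.61 and Egr3 at -0.21 there, Egr3 at 0.24 and Egr2 at 0.083 for anti-Hsf1 against scramble after reverse peptide (likewise without reverse scramble replicate 4, the upper end of -1.87 to 0.24 and -1.39 to 0.083 over libraries left out in turn), and Nr4a1 at 0.50 after Aβ42. The cause was not tested.

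Libraries with the same replicate number mostly did not deviate together. Over same-numbered libraries, deviations from the group means correlated at a median of -0.0056 in mice (3 of 40 pairs over 0.1) and 0.0131 in HT-22 cells (3 of 19). By this measure 4 of 17 and 4 of 14 libraries were closest to their own number. The highest HT-22 value was 0.57, between the replicates 4 of Aβ42 and of reverse peptide with scramble, which both stand apart. Aβ42 scramble replicate 3 and reverse scramble replicate 4, numbered differently, were at 0.56. Deviations within such small groups cannot show whether libraries shared a batch. With a replicate block 2 members, Egr2 and Nr4a1, were called in APP mice at 12 against 3 months (2.86% of all genes), 1 at 6 against 3 months (1.9%) and 0 in every other contrast.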
